A study of Canis lupus familiaris with 222 samples.

Results

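ENSCAFG00000006073 is 1 of 24580 gene identifiers measured by RNA sequencing in canine mammary tumors, which arise spontaneously in pet dogs. It was chosen by its measured level, which in all 18 tumors of the cluster called NMF3 lay above the median of the NMF1 and NMF2 tumors. The deposited table names it by its Ensembl identifier alone, and neither its symbol nor its position or sequence was used here. The bulk tissue libraries came from 158 tumors and from adjacent normal mammary tissue of 64 of the same female dogs, whose tumors were removed at surgery. No treatment, transgene or engineered allele is part of the design. Where the labels gave an age, it ran from 2 to 19 years with a median of 12, over tumors and over normal tissues alike, and both neutered and intact dogs were included. All tumors but 1 had a cluster, histology and grade in the clinical table of the study.

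Mammary tumors of the dog are named by the cells that proliferate. Simple tumors hold 1 epithelial cell type, complex tumors also hold proliferating myoepithelium, and mixed tumors contain cartilage or bone as well. Carcinosarcoma, osteosarcoma, fibrosarcoma and spindle cell carcinoma are rarer forms with a mesenchymal or spindle-shaped component. The study assigned each tumor to a cluster, NMF1 to NMF5, by non-negative matrix factorization of the whole expression profile of tumors and normal tissues, so ENSCAFG00000006073 could itself have contributed to the clusters. Levels are given in FPKM, which are fragments per length of transcript and per number of mapped fragments. In bulk tissue, more cells of a type that carries a transcript and more RNA per cell cannot be told apart.

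ENSCAFG00000006073 was listed above 0 in every library, and it spanned a wide range. Over the tumors with a cluster its level ran from 0.773 to 438.6 FPKM with a median of 16.3. The 64 normal tissues ran from 0.0419 to 235 FPKM with a median of 15.6. Within single libraries, the gene was ranked among the 14712 identifiers with a mean of at least 0.5 FPKM over all libraries. Its median percentile was 69.2 in the tumors outside NMF3, 72.8 in the normal tissues and 97.8 in the NMF3 tumors. The gene was thus at a moderate level in most tissues and near the top of the expressed transcripts in NMF3. Library medians over the expressed identifiers lay between 1.86 and 8.72 FPKM, and their own median was 6.33 in NMF3, 7.15 in NMF1 and 5.53 in NMF2.

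The NMF3 tumors had 205 ± 110.3 FPKM (SD, n = 18), with a median of 181.6 and a range from 55.7 to 438.6. The 127 NMF1 and NMF2 tumors, which set the rule, had 29.4 ± 52.7 FPKM (SD) with a median of 14.54. The ratio of the medians was 12.5, and it was 15.3 after each library was scaled to the same median. These values chose the gene, so they are a description and no test was made. The lowest NMF3 tumor, at 55.7 FPKM, lay well inside the threshold of 14.54, whereas the nearest NMF1 or NMF2 tumor under it had 14.1 FPKM. All 18 NMF3 tumors also lay above the upper quartile of NMF1 and NMF2, which was 30.4 FPKM. The groups nevertheless overlapped, since 15 of the 127 NMF1 and NMF2 tumors reached the lowest NMF3 value and 3 lay above the NMF3 median.

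**Figure D1:**
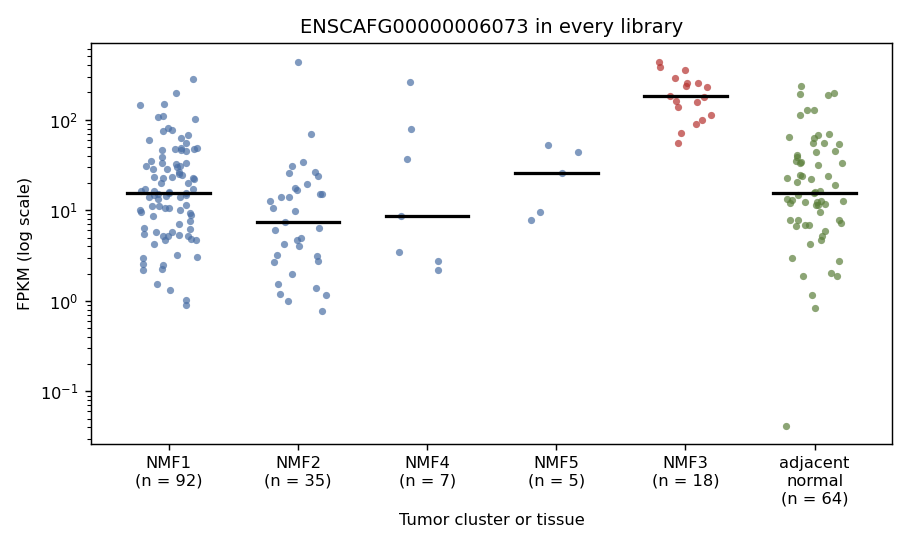
FPKM of ENSCAFG00000006073 on a log scale (vertical axis) in each tumor by cluster and in the adjacent normal tissues (horizontal axis). Each point is 1 library and black lines are medians. The 18 NMF3 tumors sit between 55.7 and 438.6 FPKM, and single tumors of NMF1, NMF2 and NMF4 and single normal tissues reach the same range.

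By median, the clusters stood in the order NMF3, NMF5, NMF1, NMF4 and NMF2. NMF5 had a median of 26.1 FPKM (7.76 to 52.3, n = 5), NMF1 of 15.7 (0.907 to 279.1, n = 92), NMF4 of 8.69 (2.17 to 258.7, n = 7) and NMF2 of 7.36 (0.773 to 429.8, n = 35). The 5 NMF5 tumors all lay below the lowest NMF3 tumor, with a highest value of 52.3 against 55.7 FPKM. Every other pair of clusters overlapped, and clusters were not tested against each other. The highest tumor outside NMF3, a tubulopapillary carcinoma of NMF2 (CMT-586), had 429.8 FPKM. It was followed by a complex carcinoma of NMF1 (CMT-118) with 279.1 FPKM and a tubulopapillary carcinoma of NMF4 (CMT-606) with 258.7 FPKM. Altogether 17 of the 139 tumors outside NMF3 (12.2%) and 12 of the 64 normal tissues (18.8%) reached the lowest NMF3 value. Of these 17 tumors, 13 were in NMF1, 2 in NMF2 and 2 in NMF4.

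The spread of ENSCAFG00000006073 was large for its level. On the log2(FPKM + 1) scale, which is used for all differences and correlations here, its SD was 1.69 over the tumors outside NMF3. This was higher than the SD of 98.1% of the identifiers with a mean of at least 0.5 FPKM in these tumors. Among them, 2605 identifiers of like mean had a median SD of 0.53. In the normal tissues its SD was 1.76, higher than that of 97% of the identifiers filtered in the same way. Within NMF3 the SD was 0.84, at a percentile of 76.6, and the highest tumor had 7.87 times the level of the lowest. The rule placed every NMF3 tumor above the median of NMF1 and NMF2, so a narrower spread there follows in part from the choice. The spread over all 64 normal tissues, 7 of them beside NMF3 tumors, was thus about as wide as over the tumors outside NMF3.

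Within NMF3, the tumors of rare histology had the highest levels. The 7 tumors were 3 osteosarcomas with 113.5, 352.4 and 386.2 FPKM, 2 carcinosarcomas with 237 and 438.6 FPKM, a fibrosarcoma with 292.4 FPKM and a spindle cell carcinoma with 155.5 FPKM. The other 11 NMF3 tumors had 155.9 ± 72 FPKM (SD), from 55.7 in a tubulopapillary carcinoma to 256.1 in a complex carcinoma, against 282.2 ± 120.3 (SD, n = 7) in the rare forms. Both kinds overlapped, but the 4 highest NMF3 tumors were all of rare histology and the 4 lowest were not. The rule used these 18 values only through their standing above 1 median and not their order within the cluster, although the profiles that defined the cluster included the gene. The means differed by 0.88 on the log2 scale (8.01 against 7.13, exact two-sided permutation test, p = 0.0271, Benjamini-Hochberg adjusted p = 0.0362 over 4 single-value tests). These 4 were survival, rare histology, and Pearson's r and Spearman's rho of the same-dog correlation, so 2 of them tested 1 relation. Within the surgery year 2016 the difference was 0.97 (3 against 3 tumors, exact permutation p = 0.3, where the smallest possible is 0.1), and within 2017 it was 0.96 (4 against 7 tumors, exact permutation p = 0.0909). Other identifiers were not compared between the rare and the other NMF3 tumors, so the difference cannot be called particular to this gene. The only rare form outside NMF3, a carcinosarcoma of NMF2, had 3.1 FPKM.

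The remaining NMF3 tumors came from the common histology groups. The 4 complex carcinomas had 98.5, 137.0, 178.2 and 256.1 FPKM. The 4 simple carcinomas had 55.7, 90.6, 185 and 228.2 FPKM. Of the benign tumors of the cluster, 1 complex adenoma had 159.8 FPKM and 2 benign mixed tumors had 70.5 and 255.5 FPKM. The rule covered every NMF3 tumor, so a high level in the benign ones follows in part from the choice. Each of these 3 benign tumors exceeded all benign mixed tumors outside NMF3, and 2 of the 3 exceeded all 32 benign tumors outside NMF3, whose highest was a complex adenoma with 81.4 FPKM. In grade 3 the NMF3 tumors had a median of 237 FPKM (90.6 to 438.6, n = 7), in grade 2 of 191.9 (55.7 to 352.4, n = 4), in grade 1 of 161 (98.5 to 292.4, n = 4) and in benign tumors of 159.8 (70.5 to 255.5, n = 3). These grades overlapped throughout.

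Since the rule used the contrast of NMF3 with the other tumors, tumor features were compared on the 139 tumors outside NMF3, or on those of them with the feature recorded. Histology, malignancy, grade, invasion and the receptor scores were compared by limma fits over all identifiers with a mean of at least 0.5 FPKM, where a call is an adjusted p under 0.05. None of these fits called ENSCAFG00000006073. The p-values measure the spread between dogs.

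Outside NMF3, the histology groups differed in their medians. Complex carcinomas had a median of 23.4 FPKM (2.26 to 279.1, n = 32), simple adenomas of 19.9 (1.54 to 59.0, n = 14), benign mixed tumors of 13.3 (0.984 to 52.3, n = 6), simple carcinomas of 12.7 (0.773 to 429.8, n = 59), complex adenomas of 9.5 (2.56 to 81.4, n = 12) and carcinomas in mixed tumors of 6.06 (1.38 to 28.5, n = 15). All 6 groups overlapped, and the neighbours in this order were not tested against each other. None of the 21 mixed tumors reached the lowest NMF3 value, whereas 6 complex and 9 simple carcinomas did. The F test over the 6 groups gave p = 0.0091 and, over all identifiers, an adjusted p of 0.134, in a comparison that called 2.28% of the identifiers.

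**Figure D2:**
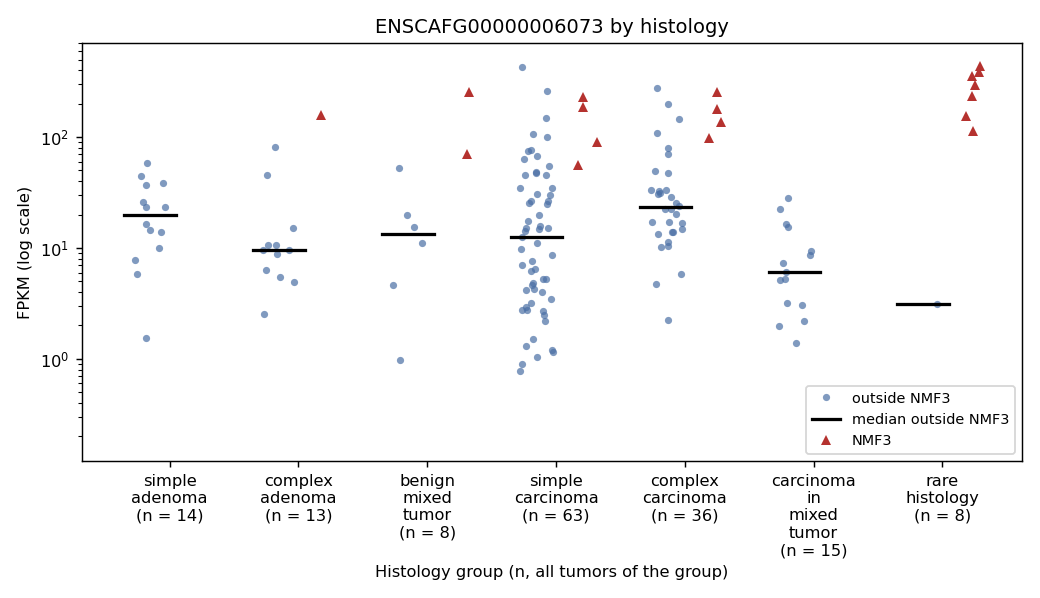
FPKM of ENSCAFG00000006073 on a log scale (vertical axis) in each tumor by histology group (horizontal axis). Circles are tumors outside NMF3 with their median as a black line, and triangles are NMF3 tumors. The 15 carcinomas in mixed tumors lie between 1.38 and 28.5 FPKM, below every NMF3 tumor, and 7 of the 8 rare forms are NMF3 tumors at 113.5 FPKM or more.

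The difference with the smallest unadjusted p was between mixed and complex tumors. The 21 benign and malignant mixed tumors outside NMF3 had a median of 7.36 FPKM and the 44 complex tumors of 17.2 FPKM. The log2 difference was -1.33 (standard error 0.36, 95% interval -2.06 to -0.61), with p = 0.000495 and an adjusted p of 0.134. In this comparison limma called 0% of the identifiers, 3080 had an unadjusted p under 0.05, and ENSCAFG00000006073 ranked 45th by p. A permutation test of the gene alone gave p = 0.00062. The difference had the same sign within each surgery year, at -1.38 in 2016 (10 against 8), -0.96 in 2017 (10 against 30) and -3.58 in 2018, where only 1 mixed tumor was available. It lay in the carcinomas, with a mean log2 level of 2.93 in carcinomas in mixed tumors (n = 15) and 4.76 in complex carcinomas (n = 32). Benign mixed tumors (3.54, n = 6) and complex adenomas (3.59, n = 12) had close means, and their medians of 13.3 and 9.5 FPKM stood in the opposite order. Malignant and benign tumors were not tested separately. For this gene taken alone, the 95% interval of the difference between the mixed and complex means thus excluded 0. The difference does not pass the correction for all identifiers tested. Single tumors overlapped, with 0.984 to 52.3 FPKM in mixed and 2.26 to 279.1 FPKM in complex tumors.

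Simple carcinomas were also lower than complex carcinomas on average, by a log2 difference of -0.96 (standard error 0.38, 95% interval -1.71 to -0.20, adjusted p = 0.148), where 3.44% of the identifiers were called. The difference was -1.37, -0.49 and -2.66 within 2016, 2017 and 2018. Among the simple carcinomas, the 17 of the solid type had a median of 34.5 FPKM and the 40 of the tubulopapillary type of 9.26 FPKM. The types overlapped, with ranges of 0.907 to 150.2 and of 0.773 to 429.8 FPKM. This comparison was noticed among the values and was not tested.

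Neither malignancy nor grade gave a difference that passed the test. The malignant tumors had a median of 14.8 FPKM and the 32 benign tumors of 12.5 FPKM. The log2 difference was 0.11 (95% interval -0.56 to 0.77, adjusted p = 0.935, 0.434% of the identifiers called). It was 0.38, 0.22 and -1.51 within 2016, 2017 and 2018. Grade 3 tumors had a median of 11.2 FPKM (0.907 to 150.2, n = 21) and grade 1 tumors of 14.7 (0.773 to 429.8, n = 67). Their log2 difference of 0.03 (95% interval -0.85 to 0.91) had an adjusted p of 0.978, although 19.2% of the identifiers were called between these grades, and its sign differed between surgery years (0.19, -0.33 and 2.37, the last with 1 grade 3 tumor). Within simple carcinomas the difference was 0.30 (95% interval -0.86 to 1.46, adjusted p = 0.812, 11.8% called), with -0.44 in 2017 and 0.04 in 2016, and 4.21 in 2018 from 1 grade 3 tumor. Tumors with lymphatic invasion had a median of 15.1 FPKM (n = 15) and malignant tumors without it of 14.7 FPKM (n = 92), a log2 difference of 0.01 (95% interval -0.96 to 0.99, adjusted p = 0.991, 11.6% called). It was -1.01, -0.16 and 2.54 within 2016, 2017 and 2018, the last with 1 invasive tumor.

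The receptor scores, read from stained sections, showed no slope that passed the test. The estrogen receptor (ER), the nuclear receptor that mediates the response to estrogen, was scored by Allred score. The 19 ER-negative tumors had a median of 11.2 FPKM and the 119 ER-positive tumors of 14.7 FPKM. The log2 difference was -0.32 (95% interval -1.14 to 0.49, adjusted p = 0.745, 1.19% called), and it was 0.48 in 2016 and -0.63 in 2017, while 2018 had no ER-negative tumor. The slope per Allred point was 0.005 (95% interval -0.12 to 0.13, adjusted p = 0.978, 5.61% called), and it was -0.0021, -0.0048 and 0.030 within 2016, 2017 and 2018. The medians did not follow the score, with 67.2 FPKM at a score of 4 (1.03 to 107.6, n = 9) and 5.19 FPKM at a score of 5 (0.773 to 26.1, n = 9). HER2, a growth factor receptor of the EGFR family, was scored from 0 to 3. The medians rose with its score, from 5.94 FPKM at 0 (n = 12) over 10.8 at 1 (n = 26) and 15.5 at 2 (n = 67) to 23.4 at 3 (n = 33), but the scores overlapped widely. The slope per HER2 point was 0.23 (95% interval -0.09 to 0.55, adjusted p = 0.821), and it was 0.12, 0.26 and -0.05 within 2016, 2017 and 2018. In that comparison limma called 0% of the identifiers and 1037 had an unadjusted p under 0.05.

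In the classes the study derived from human breast cancer subtypes, the 25 basal tumors outside NMF3 had a median of 19.9 FPKM (0.907 to 429.8) and the 114 non-basal tumors of 13.9 FPKM (0.773 to 258.7). The basal tumors of NMF1 had a median of 33.1 FPKM (0.907 to 279.1, n = 18) and those of NMF2 of 6.06 FPKM (1.16 to 429.8, n = 7), with wide overlap, and the means stood in the opposite order (50.9 and 70.7 FPKM). In NMF3, the 12 basal and the 6 non-basal tumors had medians of 181.6 and 182.6 FPKM. Their means were 225.5 and 164.1 FPKM, with ranges of 90.6 to 438.6 and of 55.7 to 256.1 FPKM. As the classes were themselves drawn from the expression data, these values are a description with no test.

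No association between survival of the dogs and the level of the gene passed the test outside NMF3. Among the dogs with follow-up, 31 died. Their tumors had a median of 14.0 FPKM, against 15.3 FPKM in the censored dogs. The hazard ratio per log2 unit was 0.895 (95% interval 0.715 to 1.12, permutation p = 0.361, adjusted p = 0.361 over the 4 single-value tests).

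Outside NMF3, tumor and adjacent normal tissue had close medians. The 57 tumors had a median of 16.3 FPKM and their own normal tissues of 15.4 FPKM. The level was higher in the tumor in 25 dogs and lower in 32. With the dog as a block, the log2 difference was -0.061 (standard error 0.22, 95% interval -0.50 to 0.38, adjusted p = 0.831), while 54% of the identifiers were called in this comparison. It was 0.06, -0.13 and -0.01 within 2016, 2017 and 2018. A mean near 0 did not mean that each pair was equal. By FPKM, the tumor was over 2-fold higher in 17 dogs, led by CMT-586 with 429.8 FPKM in the tumor and 12.3 in the normal tissue, and over 2-fold lower in 13 dogs, led by CMT-756 with 2.17 and 43.7 FPKM. Malignant pairs had a mean tumor minus normal difference of -0.17 (n = 45) and benign pairs of 0.34 (n = 12). The contrast of -0.51 had an adjusted p of 0.987, and limma called 0% of the identifiers, with 557 at an unadjusted p under 0.05. The contrast was -0.92, -0.34 and -0.08 within 2016, 2017 and 2018.

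Across dogs, a high level in the tumor went with a high level in the adjacent tissue. Over the 57 dogs, Pearson's r was 0.484 (permutation p = 0.00017, adjusted p = 0.00038) and Spearman's rho was 0.489 (permutation p = 0.00019, adjusted p = 0.00038). Without the 2 dogs farthest from the median normal level, r was 0.454 and rho was 0.456. Same-dog correlation was common in these data, with a median r of 0.222 over 14634 identifiers, and ENSCAFG00000006073 stood at percentile 96 among them. Within surgery years r was 0.718 in 2016 (n = 13, permutation p = 0.00679), 0.427 in 2017 (n = 33, permutation p = 0.0124) and -0.055 in 2018 (n = 11, permutation p = 0.872), so that the relation was not seen in the last year. The difference between years was not tested. Of the 57 dogs, 8 had a normal tissue and 8 a tumor that reached the lowest NMF3 value, and 2 dogs had both.

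**Figure D3:**
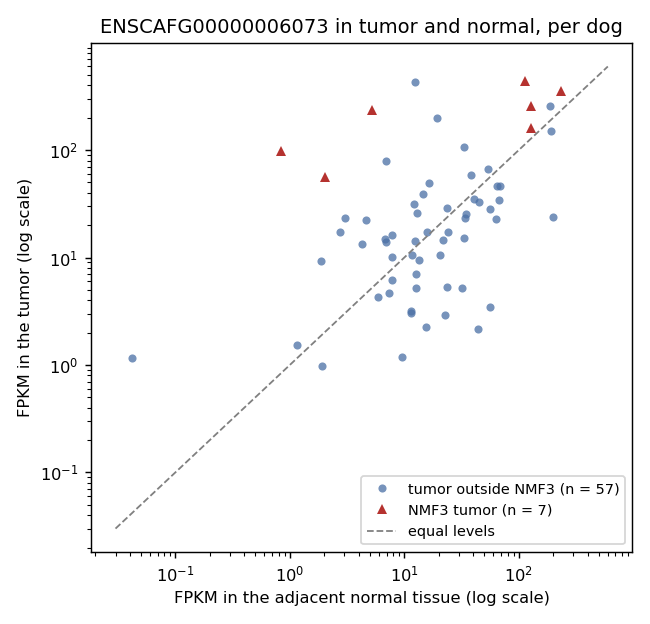
FPKM of ENSCAFG00000006073 in the adjacent normal tissue (horizontal axis) and in the tumor (vertical axis) of each dog, both on log scales, with a dashed line at equal levels. Circles are the 57 dogs with a tumor outside NMF3 (r = 0.484 on the log2 scale), and triangles are the 7 dogs with an NMF3 tumor, all above the line.

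The level in the tumor was the higher one in all 7 dogs with an NMF3 tumor and a normal tissue. Their normal tissues fell into a low set and a high set. The normal tissues of CMT-538, CMT-210 and CMT-231 had 0.841, 2.04 and 5.19 FPKM beside 98.5, 55.7 and 237 FPKM in the tumor. Those of CMT-340, CMT-355, CMT-301 and CMT-290 had 112.6, 128.7, 128.8 and 235 FPKM beside 438.6, 159.8, 256.1 and 352.4 FPKM in the tumor. In the latter 4 dogs the normal tissue was thus already within the NMF3 range, and the log2 differences were 1.95, 0.31, 0.99 and 0.58. Since the gene was chosen for its high level in these tumors, a higher tumor than normal value follows in part from the choice. The normal tissues were not part of the rule. Beside NMF3 they had a median of 112.6 FPKM (n = 7) and beside other tumors of 15.4 FPKM (n = 57). The log2 difference was 0.67 (standard error 0.69, 95% interval -0.71 to 2.05, adjusted p = 0.638, 0.0137% called). All 7 came from 2017, and within that year the difference was 0.45.

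The other contrasts of the normal tissues did not pass the test either. Those beside malignant tumors had a median of 19.2 FPKM (n = 51) and those beside benign tumors of 13.0 FPKM (n = 13), with a log2 difference of 0.53 (95% interval -0.54 to 1.60, adjusted p = 0.998). Normal tissues of neutered dogs had a median of 12.6 FPKM (n = 22) and those of intact dogs of 17.8 FPKM (n = 42), with a log2 difference of -0.33 (95% interval -1.24 to 0.58, adjusted p = 0.932). In both comparisons limma called 0% of the identifiers, with 2.76% and 4.96% at an unadjusted p under 0.05. Neither difference kept its sign in every surgery year, at 1.37, -0.18 and -0.60 for malignancy and at -1.69, 0.006 and -0.27 for neutering in 2016, 2017 and 2018.

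**Figure D4:**
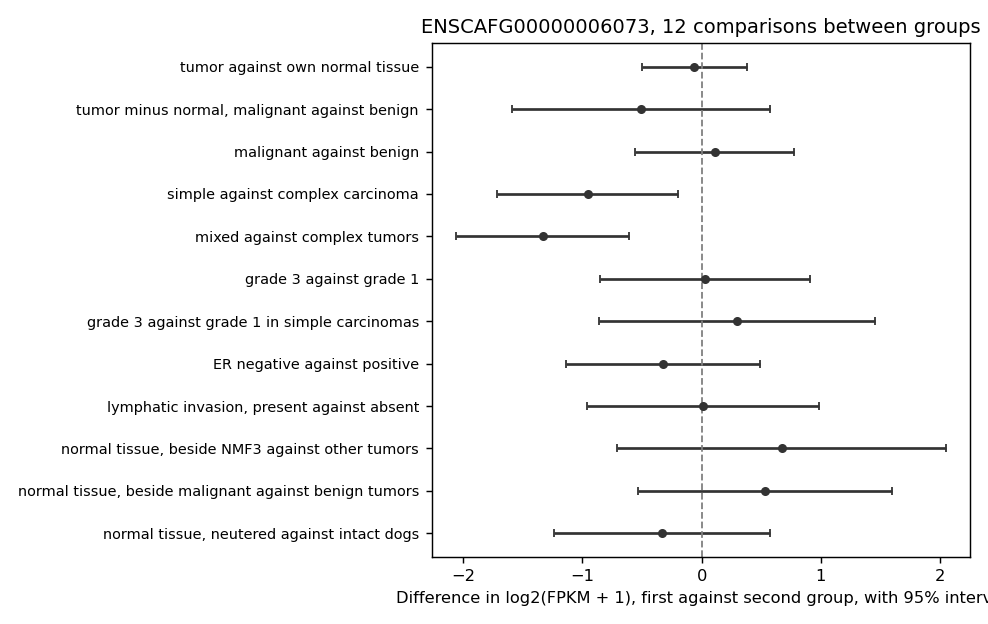
Difference in mean log2(FPKM + 1) of ENSCAFG00000006073 between the first and the second group named (horizontal axis) with its 95% interval, for 12 comparisons (vertical axis). Tumors are those outside NMF3. The intervals of mixed against complex tumors (-2.06 to -0.61) and of simple against complex carcinomas (-1.71 to -0.20) lie below 0 and the other 10 span it, while no comparison passed the adjustment over all identifiers.

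The identifiers most like ENSCAFG00000006073 were sought among 9024 with a mean of at least 5 FPKM, by Pearson's r over the 139 tumors outside NMF3. The tumors share the processing and, in part, the cell composition, so r is a description with no p. ENSCAFG00000017018 had r = 0.734 and ENSCAFG00000002069 had r = 0.667. The first had a median of 62.6 FPKM and the second of 104 FPKM in these tumors. Within clusters r was close to this, at 0.752 and 0.678 in NMF1 and at 0.708 and 0.663 in NMF2. Both clusters are part of the tumors used for the choice, so these values are no separate check. The most opposite were ENSCAFG00000008362 with r = -0.552 and ENSCAFG00000017610 with r = -0.525. Altogether 46 identifiers had an r over 0.5 and 3 had an r under -0.5, against a median r of 0.131 over all.

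Libraries that the choice of these identifiers did not use gave lower values of the same sign in the normal tissues. There r was 0.486 for ENSCAFG00000017018, 0.442 for ENSCAFG00000002069, -0.328 for ENSCAFG00000008362 and -0.323 for ENSCAFG00000017610 (n = 64). Of these normal tissues, 57 came from dogs whose tumors were used for the choice, so they are not independent of it. Of the 46 identifiers, 13 (28.3%) also had an r over 0.5 in the normal tissues, where 1.89% of all identifiers did. In NMF3 (n = 18), r was -0.136 for ENSCAFG00000008362 and -0.072 for ENSCAFG00000017610, neither of which was listed at 0 in any of these libraries. There r was -0.07 for ENSCAFG00000017018 and -0.47 for ENSCAFG00000002069, which were each listed at 0 in 3 of the NMF3 tumors. Both were listed at 0 in the tumor and the normal tissue of CMT-290 with 352.4 and 235 FPKM of ENSCAFG00000006073. The tumor of CMT-332 had 0 for ENSCAFG00000017018 and 5369 FPKM for ENSCAFG00000002069, while that of CMT-340 had 4054 FPKM for the first and 0 for the second. Of 694 identifiers with a mean over 100 FPKM, 50 were listed at 0 in at least 1 library. Whether such a 0 is a failed estimate or an absent transcript was not tested. Without the libraries at 0, r was 0.650 in the normal tissues (n = 63) and 0.527 in NMF3 (n = 15) for ENSCAFG00000017018, and 0.650 and 0.362 for ENSCAFG00000002069. The NMF3 tumors left out in this way were all of rare histology. ENSCAFG00000006073 itself was listed at 0 in no library.

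**Figure D5:**
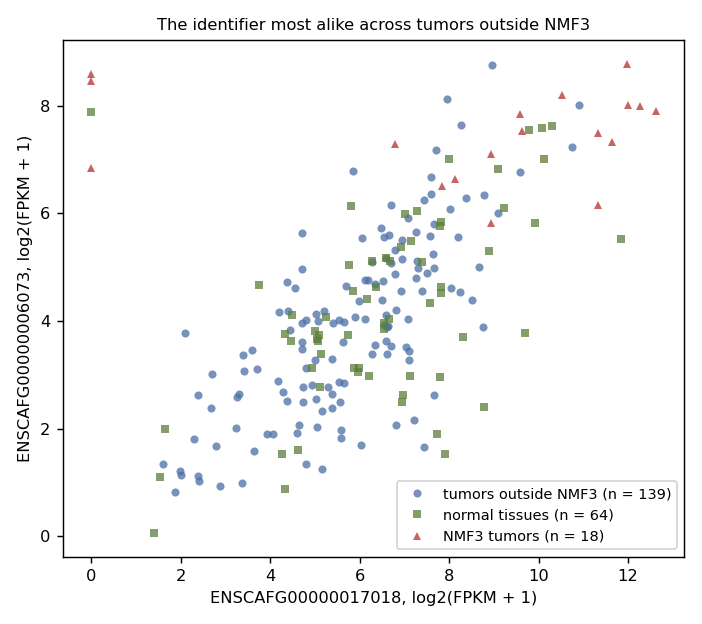
Level of ENSCAFG00000006073 (vertical axis) against that of ENSCAFG00000017018 (horizontal axis), both as log2(FPKM + 1), in each of the 221 libraries with a cluster or from normal tissue. Circles are tumors outside NMF3 (r = 0.734), squares normal tissues and triangles NMF3 tumors; the 4 points at 0 on the horizontal axis are libraries in which ENSCAFG00000017018 is listed at 0.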

How the data were processed

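Total RNA of 158 tumors and 64 adjacent normal tissues was sequenced after poly(A) selection. Per the labels and the methods of the study, the authors aligned reads to CanFam3.1 with TopHat2 (version 2.0.9) and Bowtie2, and the deposited FPKM values were estimated per Ensembl gene with Cufflinks (version 2.1.1). FPKM corrects for length and library size but not for composition. The table holds no counts, so the reads behind a value, and with them counting intervals, are not given.

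Histology, grade, cluster, class and survival were read from the clinical table of the study. One tumor with no line there was left out of all comparisons. Histology differed between the labels and that table in 9 tumors, and the table was used. ENSCAFG00000006073 and all comparisons were chosen with earlier results of these data known.

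Values were compared as log2(FPKM + 1) with limma (version 3.58.1, R 4.3.3, trended variance) over identifiers with a mean of at least 0.5 FPKM, two-sided, with Benjamini-Hochberg adjustment over all of them and a threshold of 0.05. Tumor and normal were paired because they come from the same dog, and the fit had the dog as a block. The deviations of a dog's tissues from the group means correlated at 0.205 on average, and over 0.1 in 43 of 57 dogs. Survival used a Cox model with a permutation test of 100000 resamples, as did the same-dog correlation, and rare histology an exact permutation test. Named identifiers were the 2 with the highest and the 2 with the lowest r. Alternatives changed the pseudocount (0.1), filter, scaling, covariates, tumor set, diagnoses, block or test. Within-year values of the correlation and of rare histology were chosen after seeing the data. Cell type markers were not analysed here, because the table gives identifiers without symbols, so the part of cell composition in any result was not tested.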

Additional observations from a re-analysis of the deposited data

Results flagged for a closer look

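Of 16 groups of 4 to 10 libraries, several of which regroup the same NMF3 tumors, 2 had a library far from the rest in FPKM. Chance gives about 1 in 20 groups for values that are normally distributed, which FPKM is not, and on the log2(FPKM + 1) scale no group had such a library. Among the 7 NMF4 tumors, the highest, a tubulopapillary carcinoma (CMT-606), had 258.7 FPKM and the next 79.7. The adjacent normal tissue of the same dog had 187.1 FPKM and was the highest of the 4 beside NMF4 tumors. Among the 6 benign mixed tumors outside NMF3, the highest (CMT-215) had 52.3 FPKM and the next 19.7.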

How the results depend on the processing

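Over 18 tested results, 117 alternative settings kept the direction and the side of the threshold, 15 turned the direction and 5 changed the side of the threshold, 1 of them (the same-dog correlation in 2018) doing both, and none of the 104 refits over all identifiers called ENSCAFG00000006073. With all tumors, NMF3 included, the direction turned for tumor against own normal (0.24), ER negative against positive (0.30), the Allred slope (-0.053), lymphatic invasion (-0.15) and survival (hazard ratio 1.07), a set that holds the tumors the gene was chosen on. Values near 0 also turned: grade 3 against 1 with a pseudocount of 0.1 (-0.022), surgery year (-0.062) and the labels' grades (-0.097), the Allred slope with median scaling (-0.0055), surgery year (-0.0027) and NMF1 and NMF2 only (-0.010), and lymphatic invasion with a pseudocount of 0.1 (-0.027), surgery year (-0.089) and mapping rate (-0.0010). The cause was not tested. Tested alone by permutation, without adjustment over identifiers, mixed against complex tumors (-1.33, p = 0.00062) and simple against complex carcinoma (-0.96, p = 0.0159) passed. Within single surgery years, with fewer tumors, the difference of rare histology in NMF3 (0.97 in 2016 and 0.96 in 2017) no longer passed its exact test, and the same-dog correlation was -0.055 in 2018. Without the replicate block, tumor against own normal had a log2 difference of -0.061 (adjusted p = 0.886), so ENSCAFG00000006073 was not called with or without it. The share of all identifiers called was 54% with the block and 47.6% without it. Over all settings the adjusted p of mixed against complex tumors ran from 0.0812 to 0.362. The table holds no counts, and the reads behind single values were not analysed here. The 7 normal tissues beside NMF3 tumors leave an interval of -0.71 to 2.05.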

Other observations

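The tumor with no cluster (CMT-351) had 8.65 FPKM, inside the range of every cluster except NMF3. By surgery year, the tumors outside NMF3 had medians of 10.5 FPKM in 2016 (n = 36), 14.7 in 2017 (n = 87) and 22.5 in 2018 (n = 16), and the normal tissues of 11.4 (n = 13), 14.1 (n = 40) and 23.7 (n = 11). The NMF3 tumors came from 2016 (n = 6), 2017 (n = 11) and 2018 (n = 1), with medians of 181.6, 159.8 and 255.5 FPKM. Years were not tested against each other.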
